A study of Capra hircus with 3 samples.

Results

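Steroid receptors and the genes of hormone-sensing luminal cells were examined in lactating mammary gland of the Laoshan dairy goat, a Chinese dairy breed. The 9 genes were taken by name and not by a rule on their values, but with earlier results of these data known, as were the gene lists below. Each was found by its gene ID at 1 locus, out of 13023 protein-coding genes measured. They are the receptors ESR1, PGR, NR3C1 and VDR, the transcription factors FOXA1 and GATA3, the ligands TNFSF11 and WNT4, and the receptor TNFRSF11A. Tissue was removed by surgery at 10, 90 and 210 days after parturition from 5 goats, which were 4 years old and in the third lactation according to the methods of the study. No treatment was compared. RNA of the 5 goats was mixed in equal amounts into 1 library per stage, labelled early, peak and late lactation, so 15 RNA samples gave 3 libraries. With 1 library per stage the spread between goats cannot be estimated, no difference between stages has a replicate check, and no p-value is given.

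In the mammary gland, estrogen and progesterone act through the receptors ESR1 and PGR in a subset of luminal epithelial cells, the hormone-sensing cells, whose identity depends on the factors FOXA1 and GATA3. These cells pass the signal to their neighbours by secreted factors. Progesterone induces TNFSF11 (RANK ligand) and WNT4, TNFSF11 binds TNFRSF11A (RANK) on neighbouring cells, and ESR1 induces the growth factor AREG. NR3C1, the glucocorticoid receptor, takes part in milk protein gene expression in secretory cells, and VDR, the vitamin D receptor, regulates calcium handling genes.

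The values are FPKM, fragment counts scaled by the authors' software for transcript length and for sequencing depth, so levels of different genes can be set side by side within a library. A ratio between libraries is called 2-fold when the FPKM differ at least 2-fold. FPKM carries no read numbers per gene, so the depth behind each value is unknown and no interval is given. In bulk tissue, fewer cells of a type and less RNA per cell cannot be told apart. The labels of the peak and late libraries are in doubt. Of 148 annotated lncRNA genes, 20 differed between them in the direction that a supplementary table of the study lists, and 128 did once both columns were exchanged, which reverses each direction. For late over early as listed there, 58 of 135 genes matched as labelled and 117 after the exchange. For peak over early, 36 of 67 matched as labelled and 43 after the exchange. Libraries are called early-, peak- and late-labelled for this reason, and every statement on the peak-labelled or late-labelled library would pass to the other if the columns were exchanged. The 4 milk protein genes PAEP, LALBA, CSN3 and CSN1S1 made up 20.2%, 6.34% and 16.1% of the FPKM sum in the early-, peak- and late-labelled libraries. LALBA was listed at 70053, 15214 and 0 FPKM, while CSN3 and CSN1S1 were higher in the late-labelled than in the early-labelled library. The most abundant locus, counted apart from these genes and not identified here, made up 29.99%, 46.04% and 29.9%. These shares therefore do not measure milk transcripts as a whole. Markers of luminal, basal, fibroblast and endothelial cells were present in all libraries.

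The authors' table places loci on scaffolds without an assembly name, and the methods of the study name more than 1 goat assembly, so the build of these positions is uncertain. The loci lay at NW_005100755.1:1606875-1847566 for ESR1, NW_005100817.1:1780928-1887711 for PGR, NW_005100721.1:11883853-12003914 for NR3C1, NW_005100666.1:21641670-21745045 for VDR. The loci of the transcription factors lay at NW_005100902.1:8631648-8633217 for FOXA1 and NW_005100800.1:2913461-2933542 for GATA3, and those of the ligands and of RANK at NW_005100792.1:1386143-1420292 for TNFSF11, NW_005100931.1:821931-899719 for TNFRSF11A and NW_005100623.1:32511611-32525253 for WNT4. Each position covers the whole locus, exons and introns together, and the table gives neither strand nor exons. No other entry of the table shared a locus with any of the 9 genes.

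NR3C1 had the highest level of the 9 genes in every library. It was measured at 63.5 FPKM in the early-labelled, 41.95 in the peak-labelled and 59.7 in the late-labelled library, at percentiles of 95.8, 94.5 and 95.2 among protein-coding genes. ESR1 stood at 17.7, 24.6 and 20.7 FPKM in the same order of libraries, and VDR at 22.8, 11.0 and 19.2 FPKM. PGR had 5.66, 15.4 and 9.35 FPKM and GATA3 15.0, 10.4 and 14.6 FPKM. The other 4 genes stayed below 6 FPKM in all libraries. TNFRSF11A had 2.97, 2.14 and 1.95 FPKM and FOXA1 1.57, 2.79 and 0.523 FPKM. TNFSF11 was listed at 0.864, 5.26 and 0.506 FPKM and WNT4 at 0.546, 3.60 and 1.38 FPKM. Both ligands thus ranked last in the early-labelled library and passed TNFRSF11A and FOXA1 in the peak-labelled one. Whether neighbours in this order differ could not be tested.

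**Figure D1:**
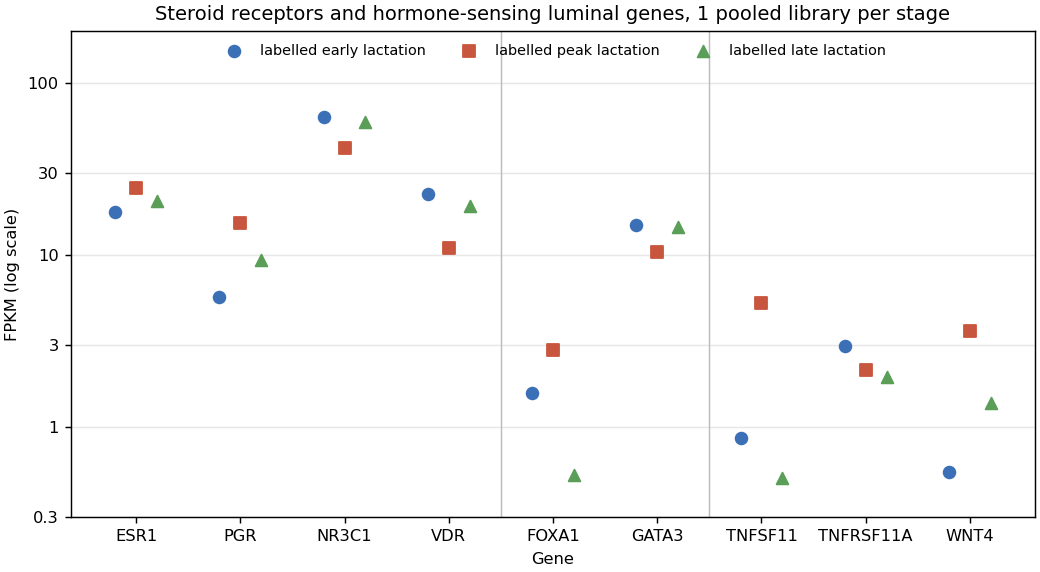
FPKM of the 9 genes (horizontal axis) on a log scale, 1 point per pooled library, with no error bars because each stage has 1 library. TNFSF11 and WNT4 lay at 5.26 and 3.60 FPKM in the peak-labelled library and below 1.4 FPKM in the others, while NR3C1, VDR and GATA3 were lowest there.

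The 9 genes did not share a pattern. In the peak-labelled library 5 of them were at their highest, namely ESR1, PGR, FOXA1, TNFSF11 and WNT4, and the other 4, NR3C1, VDR, GATA3 and TNFRSF11A, were highest in the early-labelled one. None was highest in the late-labelled library. Over all protein-coding genes, 43.7% were highest in the peak-labelled, 23.4% in the early-labelled and 32.9% in the late-labelled library. The spread from highest to lowest library was narrow for ESR1, at 1.39-fold, for GATA3, at 1.43-fold, for NR3C1, at 1.51-fold, and for TNFRSF11A, at 1.52-fold. It was 2.07-fold for VDR, 2.71-fold for PGR, 5.33-fold for FOXA1, 6.60-fold for WNT4 and 10.4-fold for TNFSF11. The 4 nuclear receptors thus varied less between libraries than the ligands did.

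Between the early- and peak-labelled libraries, 4 of the 9 genes differed at least 2-fold, against 17.7% of 13020 protein-coding genes. Higher in the peak-labelled library were WNT4 (log2 ratio 2.72), TNFSF11 (2.61) and PGR (1.44), where 10.9% of all genes were, and VDR was higher in the early-labelled one (log2 ratio -1.05), where 6.8% of all genes were. FOXA1 had a log2 ratio of 0.82 and ESR1 of 0.48. For TNFRSF11A, GATA3 and NR3C1 the ratios were -0.47, -0.52 and -0.60. The median was 0.48 over the 9 genes and 0.01 over all protein-coding genes. When FPKM were rescaled without the most abundant locus and the 4 milk protein genes, the peak-labelled library shifted by 0.21 on the log2 scale, FOXA1 reached 1.03 and VDR stood at -0.85, so that 4 genes were at least 2-fold higher and 0 lower. The same rescaling turned 1421 higher and 886 lower protein-coding genes into 1976 and 612, and dividing by 5 luminal genes, a setting chosen after the data were seen, into 1038 and 1277.

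Between the early- and late-labelled libraries, WNT4 was higher in the late-labelled one (log2 ratio 1.34) and FOXA1 lower (-1.59). These 2 of 9 genes stood against 8.71% of 13004 protein-coding genes, of which 1.97% were higher in the late-labelled and 6.74% in the early-labelled library. PGR had a log2 ratio of 0.72, TNFSF11 of -0.77 and TNFRSF11A of -0.61. The 4 genes NR3C1, VDR, GATA3 and ESR1 lay between -0.24 and 0.23. FOXA1 was the member with the shortest locus, at 1570 nt, and its FPKM was below 1 in the late-labelled library, as that of WNT4 was in the early-labelled one. With a pseudocount of 1 the ratios were 0.62 for WNT4 and -0.76 for FOXA1, and 0 of the 9 genes differed 2-fold.

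Between the peak- and late-labelled libraries, TNFSF11 (log2 ratio of late over peak -3.38), FOXA1 (-2.41) and WNT4 (-1.38) differed at least 2-fold, all higher in the peak-labelled library. Of 13015 protein-coding genes, 25.9% differed 2-fold and 17.4% were higher in the peak-labelled library, while 8.56% were higher in the late-labelled one. VDR had a ratio of 0.81, NR3C1 of 0.51 and GATA3 of 0.48, and PGR of -0.72. Divided by the 5 luminal genes, VDR reached 1.01 and TNFRSF11A turned from -0.13 to 0.07. That division also moved the split of all genes from 1114 higher and 2263 lower in the late-labelled library to 1563 and 1837. The 3 comparisons share libraries and are not independent.

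**Figure D2:**
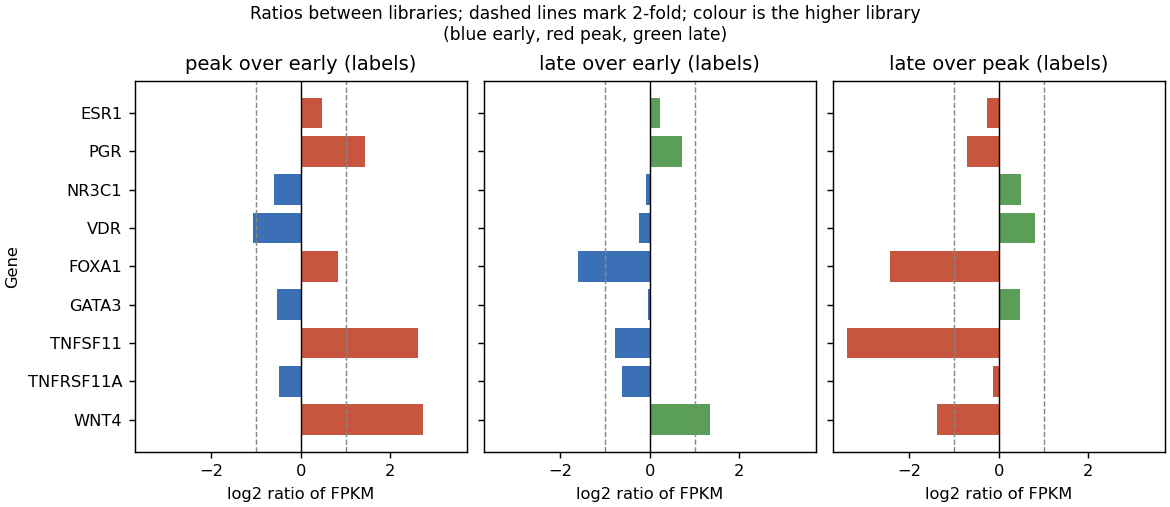
Log2 ratio of FPKM of each gene (vertical axis) for the 3 pairs of libraries, with bars starting at 0 and coloured by the higher library. Bars past the dashed lines differ at least 2-fold, which holds for 4 genes in the peak over early panel, 2 in the late over early panel and 3 in the late over peak panel.

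Among the receptors, the balance between PGR and ESR1 differed between libraries. PGR, itself a target of ESR1, stood at 0.320 of the ESR1 level in the early-labelled, 0.625 in the peak-labelled and 0.452 in the late-labelled library. ESR2, the second estrogen receptor, was far lower, at 1.24, 0.539 and 2.33 FPKM, so that ESR1 exceeded it 14.2-, 45.6- and 8.89-fold. NR3C1 exceeded PGR 11.2-fold in the early-labelled, 2.73-fold in the peak-labelled and 6.39-fold in the late-labelled library. NR3C2, the mineralocorticoid receptor, which also binds cortisol, had 34.2, 17.1 and 45.3 FPKM, a log2 ratio of late over peak of 1.40. RXRA, a dimer partner of VDR, had 3.45, 1.5002 and 0.984 FPKM, while RXRB stayed between 8.77 and 9.72 FPKM.

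Of 42 other nuclear receptors listed, 27 were found. Between the early- and peak-labelled libraries 2 were at least 2-fold higher in the peak-labelled one and 5 lower, 25.9% of the list against 17.7% of all genes, and the median log2 ratio was -0.17. Under the rescaling without the most abundant locus and milk protein genes 4 were higher and 2 lower, and the median turned to 0.04. The orphan receptor NR2F6 had the highest mean, with 150, 103 and 155 FPKM, at a locus it shares with 1 other entry. NR2F1 had the largest ratio, from 1.30 FPKM in the early-labelled to 5.30 in the peak-labelled and 1.10 in the late-labelled library. Genes lower in the peak-labelled library were ESR2, RXRA, THRB, ESRRA and RORA.

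A list mostly of genes known to act beside ESR1 and PGR in hormone-sensing cells, or as their targets, was found for 20 of 24 symbols. It also held the luminal keratins KRT8, KRT18 and KRT19, the prolactin receptor PRLR and ELF5, which are not particular to hormone-sensing cells. CITED1, TFF1, AGR3 and ID4 were not matched by symbol and were not analysed here. In the peak-labelled library 10 of the 20 were at least 2-fold higher and 3 lower than in the early-labelled one, with a median log2 ratio of 0.91. These 13 of 20 genes that differed 2-fold stood against 17.7% of all genes. AREG, an ESR1 target and ligand of the EGF receptor, had 2.62 FPKM in the early-labelled, 24.2 in the peak-labelled and 0.426 in the late-labelled library. TFF3, a secreted trefoil peptide induced by estrogen, had 1.72, 59.4 and 1.15 FPKM, the largest ratio of the list among genes above 1 FPKM. The ESR1 targets GREB1 and STC2, named after their values were seen, had 0.496, 5.62 and 0.527 FPKM and 0.190, 4.43 and 0.147 FPKM. These 4 genes were low in the early- and late-labelled libraries and higher in the peak-labelled one. AGR2 and CA12, which estrogen also induces in breast cells and which were named after their values were seen, ran the other way, with 27.7, 5.88 and 55.4 FPKM and with 22.7, 10.1 and 28.0 FPKM.

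The 10 genes that were higher also included PROM1, MYB, TBX3, SPDEF, PDZK1 and CCND1. PROM1, a surface protein of hormone-sensing luminal cells, had 2.95, 12.98 and 1.07 FPKM at a locus shared with 1 other entry. The 3 that were lower in the peak-labelled library were AGR2, CA12 and ELF5. ELF5, the factor that drives the secretory alveolar cell, had 879, 244 and 875 FPKM, and its ratio to PGR was 155, 15.8 and 93.7. PRLR, the prolactin receptor, which both luminal classes express, had 125, 67.9 and 131 FPKM. The highest mean after ELF5 was that of the luminal keratin KRT19, with 439, 413 and 364 FPKM. Between the early- and late-labelled libraries only AGR2 was at least 2-fold higher in the late-labelled one, and AREG, PROM1 and MYB were lower. The median log2 ratio was -0.09 over the 20 genes. These 4 of 20 genes stood against 8.71% of all genes, 1.97% higher and 6.74% lower in the late-labelled library. AGR2 lay at the threshold, at 2.001-fold, and AREG and MYB had 0.426 and 0.379 FPKM in the late-labelled library. With a pseudocount of 0.1, 0 of the list were higher there and 2 lower.

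**Figure D3:**
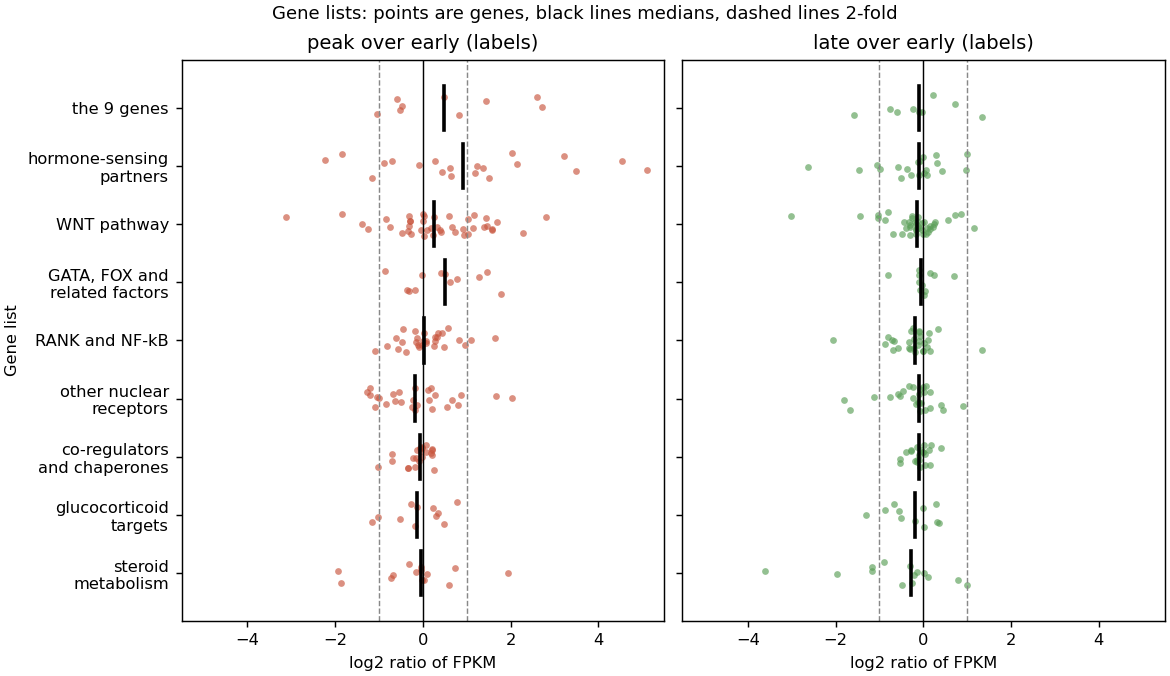
Log2 ratio of FPKM over the early-labelled library for the 9 genes and 8 gene lists (vertical axis), with 1 point per gene above 0 in both libraries and the list median as a black line. Hormone-sensing partners had a median of 0.91 in the peak-labelled and of -0.09 in the late-labelled library, while co-regulators and chaperones lay at -0.05 and -0.09.

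In the RANK pathway, the ligand varied and the receptor varied less. TNFSF11 stood at 0.291 of the TNFRSF11A level in the early-labelled library, at 2.46 times that level in the peak-labelled and at 0.260 of it in the late-labelled one. The decoy receptor TNFRSF11B (osteoprotegerin), which binds TNFSF11 and blocks it, had 0.445, 0.301 and 1.12 FPKM at a locus shared with 1 other entry. The ratio of TNFSF11 to its decoy was 1.94, 17.5 and 0.452, so the decoy exceeded the ligand only in the late-labelled library. All of these levels are low. TNFSF11 also has T cells as a source, and the summed level of the 6 T cell markers was 17.8 FPKM in the early-labelled, 46.9 in the peak-labelled and 7.38 in the late-labelled library. Of these markers, CD3E, whose locus is shared with 2 other entries, was listed at 0 in the early- and peak-labelled libraries, and the other 5 were at least 2-fold higher in the peak-labelled than in the early-labelled one. Their part in the level of TNFSF11 was not tested.

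Of 29 RANK and NF-kB pathway genes, all found, 2 were at least 2-fold higher in the peak-labelled than in the early-labelled library and 1 was lower, 10.3% of the list against 17.7% of all genes. The rescaling without the most abundant locus and milk protein genes gave 4 higher and 0 lower, and division by the 5 luminal genes 1 higher and 2 lower. The median log2 ratio of 0.04 turned to -0.16 when divided by the luminal genes. The higher ones were BCL3, a co-factor of NF-kB p50 and p52, with 1.27, 3.98 and 0.725 FPKM, and RELB, a subunit of the non-canonical pathway, with 3.796, 8.15 and 2.54 FPKM. FOS was lower, with 42.1, 19.9 and 10.2 FPKM. JUN, its dimer partner, had the highest mean of the list, with 121, 79.5 and 66.4 FPKM. Between the peak- and late-labelled libraries, MAP3K14, NFKB2, RELB, NFKBIA, BCL3 and NFATC1 were higher in the peak-labelled one and TNFRSF11B in the late-labelled one, 24.1% of the list against 25.9% of all genes. Divided by the luminal genes, 3 were higher in the peak-labelled library and 1 in the late-labelled one. TRAF6, the adaptor of TNFRSF11A, had 17.0, 9.59 and 10.3 FPKM, named after its values were seen.

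WNT4 was the member with the widest difference between the early- and peak-labelled libraries. With a pseudocount of 1 its log2 ratio was 1.57, below the 1.75 of TNFSF11. WNT5A, a ligand that mostly signals without beta-catenin, ran opposite to WNT4, at 11.3, 3.18 and 13.7 FPKM. WNT4 thus stood at 0.0483 of WNT5A in the early-labelled, at 1.13 times it in the peak-labelled and at 0.101 of it in the late-labelled library. Of 61 WNT pathway genes listed 43 were found. In the peak-labelled library 13 were at least 2-fold higher than in the early-labelled one and 4 lower, a share of 39.5% that differed 2-fold against 17.7% of all protein-coding genes. The median log2 ratio was 0.25, and 0.05 when divided by the 5 luminal genes. With a pseudocount of 1, 8 of the list were higher and 3 lower, while the protein-coding genes that differed 2-fold went from 2307 to 1194.

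The receptor FZD1 had 7.67, 20.2 and 3.75 FPKM and FZD5 10.6, 1.21 and 6.05 FPKM, opposite in order. AXIN2, a target and inhibitor of beta-catenin signalling, had 1.03, 3.06 and 0.562 FPKM, and LGR5, a target and R-spondin receptor, 0.506, 2.46 and 0.187 FPKM, both named after their values were seen. Higher in the peak-labelled library were also the ligand WNT7B, listed at 0 in the others, PORCN, FZD2, FZD7, FZD10, and the inhibitors SFRP1, SFRP2, SFRP5, DKK1 and DKK3. Of the genes higher in the peak-labelled library, WNT7B, PORCN, FZD2, FZD10, LGR5, SFRP5 and DKK1 were below 1 FPKM in the early-labelled one. WNT5A, FZD5, FZD8 and ZNRF3 were lower in the peak-labelled library. CTNNB1 (beta-catenin), with 95.5, 112 and 87.2 FPKM, and the co-receptor LRP6, with 35.9, 29.9 and 33.2 FPKM, had the highest means and differed less than 2-fold.

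The WNT4 locus spans 13643 nt, and 9 loci without a gene ID lay within 10000 nt of it. All 9 were highest in the peak-labelled library, as WNT4 was, where 46.2% of the 34764 loci without a gene ID were highest. Neighbouring loci can be parts of 1 transcript and are not independent. The nearest one, 1164 nt away, had 0.383, 1.28 and 0.945 FPKM, and the most abundant one had 3.37, 5.0004 and 3.39 FPKM. Near ESR1, 3 such loci were also highest in the peak-labelled library, the nearest at 509 nt with 2.27, 3.87 and 1.88 FPKM. Near PGR, the nearest locus, at 264 nt, had 1.85, 1.90 and 1.14 FPKM, and 6 entries at 1 position 2842 nt away included 4 that were highest in the late-labelled library. TNFSF11 and VDR had none within this distance. No locus overlapped one of the 9 genes.

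**Figure D4:**
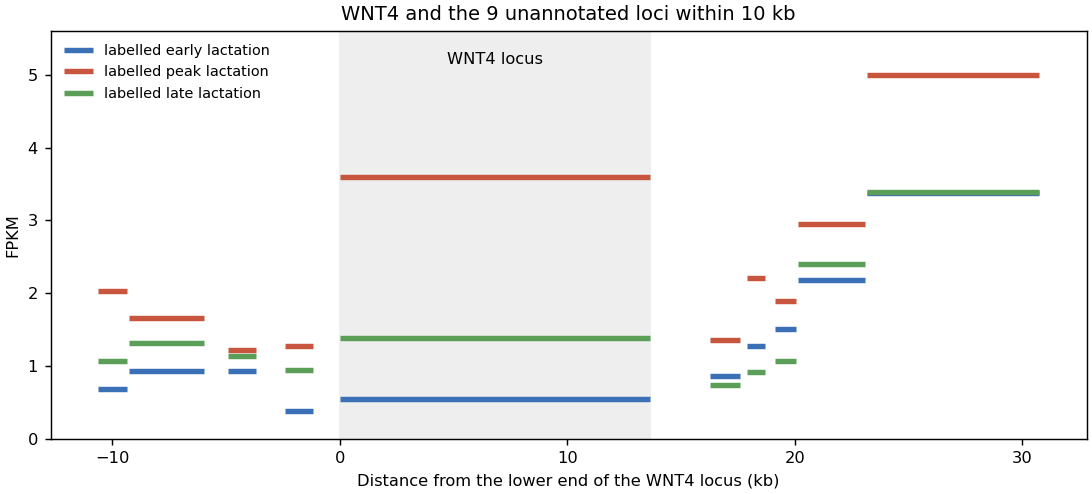
FPKM of the WNT4 locus (shaded) and of the 9 unannotated loci within 10 kb, drawn to scale along the scaffold in kb from the lower end of WNT4, 1 line per library. The line of the peak-labelled library lies above the others at WNT4 and at each of the 9 loci.

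Among the transcription factors, FOXA1 and GATA3 differed in order. GATA3 exceeded FOXA1 9.53-fold in the early-labelled, 3.75-fold in the peak-labelled and 27.9-fold in the late-labelled library. GATA3 is also a T cell factor, and it was lowest in the peak-labelled library, where the T cell markers were highest. The part of T cells in its level was not tested. Of 19 related factors 13 were found. In the peak-labelled library 4 were at least 2-fold higher than in the early-labelled one and 0 lower, 30.8% against 17.7% of all genes, with a median log2 ratio of 0.50. These were GATA2, with 1.01, 3.48 and 1.12 FPKM, TFAP2A, ZFPM2 and GATA6, which was listed at 0 in the others. TRPS1, a GATA family repressor of luminal cells, had the highest mean, with 38.8, 60.1 and 22.1 FPKM, followed by FOXO3 with 21.9, 12.2 and 22.2 FPKM.

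Targets of the glucocorticoid receptor were found for 11 of 17 symbols, and 2 were at least 2-fold lower in the peak-labelled than in the early-labelled library and 0 higher, a share of 18.2% against 17.7% of all protein-coding genes. Under the rescaling without the most abundant locus and milk protein genes 0 of the 11 differed 2-fold. FKBP5, an inducible chaperone of the receptor, had 34.0, 16.6 and 34.0 FPKM and PER1 12.0, 5.36 and 10.5 FPKM. Both were lowest in the peak-labelled library, as NR3C1 was. The list was mixed, with 5 targets higher and 6 lower there than in the early-labelled library. Among the higher were ZBTB16, with 13.7, 23.5 and 17.6 FPKM, and SGK1, with 8.46, 10.4 and 5.72 FPKM. NFKBIA, with 36.4, 51.0 and 23.0 FPKM, and KLF9, with 37.3, 31.1 and 37.8 FPKM, had the highest means, and PDK4 had 30.1, 21.1 and 12.1 FPKM. The list had a median log2 ratio of -0.13, which turned to 0.08 under that rescaling. HSD11B2, the enzyme that inactivates cortisol, was not analysed here.

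Of 19 genes of the vitamin D axis 7 were found, and they were mixed. In the peak-labelled library 2 were at least 2-fold higher than in the early-labelled one, TRPV6 and LRP2, and 3 were lower, RXRA, ATP2B2 and KL. These 5 of 7 genes, 71.4%, stood against 17.7% of all protein-coding genes, and the median log2 ratio of the list was -0.71. After the rescaling without the most abundant locus and milk protein genes 2 were higher and 1 lower. TRPV6, a calcium channel of epithelia and a VDR target in the intestine, had 1.83, 15.4 and 0.0335 FPKM and was highest in the peak-labelled library. LRP2, which takes up vitamin D bound to its carrier, had 3.65, 11.6 and 1.17 FPKM. The calcium pump gene ATP2B1 had 15.6, 23.5 and 12.0 FPKM, and ATP2B2, the pump of the milk-facing membrane, 9.76, 4.14 and 12.3 FPKM at a locus shared with 1 other entry. ATP2B2 and KL, a co-receptor in mineral balance with 1.77, 0.805 and 2.28 FPKM and named after its values were seen, were lowest in the peak-labelled library, as VDR was. CYP24A1, the enzyme that degrades vitamin D, was not analysed here.

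The 9 genes were set beside summed markers of the cell types that the tissue holds. The 8 secretory luminal markers found summed to 125940 FPKM in the early-labelled, 33240 in the peak-labelled and 73650 in the late-labelled library. LALBA was listed at 70053, 15214 and 0 FPKM, while CSN1S1, CSN3, BTN1A1 and XDH were higher in the late-labelled than in the early-labelled library. KIT, with 3.96, 9.82 and 1.12 FPKM, and ALDH1A3, with 3.23, 16.4 and 2.02 FPKM, were highest in the peak-labelled library, where the sum was lowest. Luminal keratin and junction markers varied 1.28-fold, basal markers 1.06-fold, fibroblast and endothelial markers 1.21-fold each. Single markers moved apart within these sums. COL1A2 and COL3A1 were 2.099- and 2.082-fold lower in the peak-labelled than in the early-labelled library, PDGFRA 2.04-fold and DCN 1.94-fold higher, KRT7 2.05-fold higher and the basal marker OXTR 3.35-fold lower. Immune markers varied more, at 6.36-fold for T cells, 2.35-fold for macrophages and 1.74-fold for B and plasma cells, each highest in the peak-labelled library. JCHAIN, with 266, 429 and 337 FPKM, made up most of the B and plasma cell sum, and the median log2 ratio of peak over early was 1.87 over this list and 1.49 over the T cell list. MS4A1 had 0.239, 3.07 and 0.132 FPKM. Adipocyte markers were highest in the early-labelled library, 2.95-fold above the lowest. The sum of cycling markers varied 1.05-fold, but most of it was PCNA, with 11.2, 9.71 and 11.8 FPKM. The low markers MKI67, TOP2A and CDK1 were highest in the peak-labelled and lowest in the late-labelled library. The median log2 ratio of late over peak was -0.81 over the cycling list. PGR, TNFSF11, FOXA1 and WNT4 were highest in the peak-labelled library, and the part of cell composition in their levels was not tested. Division by the 5 luminal genes, chosen after the data were seen, shifted the ratios of the 9 genes by at most 0.20 on the log2 scale. With so small a shift, PGR, TNFSF11 and WNT4 stayed at least 2-fold higher in the peak-labelled than in the early-labelled library. This division does not address the share of hormone-sensing cells among luminal cells, or that of immune cells.

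**Figure D5:**
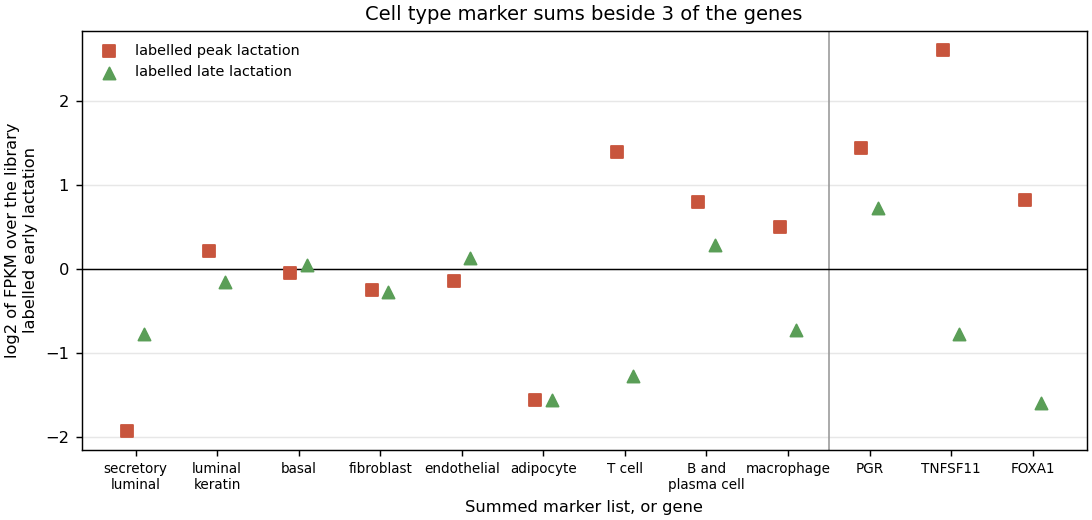
Log2 of the summed FPKM of each cell type marker list (left of the line) and of PGR, TNFSF11 and FOXA1 (right) over the early-labelled library, for the peak-labelled (squares) and late-labelled (triangles) libraries. T cell markers went from 17.8 to 46.9 and 7.38 FPKM, while basal, fibroblast and endothelial sums stayed within 1.21-fold.

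Similarity of pattern was measured as the Euclidean distance between centred log2 FPKM over the 3 libraries, which holds few points and says nothing of shared function. Within a distance of 0.2 lay 815 of 11086 protein-coding genes for ESR1, 1460 for GATA3 and 1132 for NR3C1, so these patterns were common. The nearest were EFNB2, WDR60 and MORC3 for ESR1, PPIB, MRPL27 and SLC38A10 for GATA3, and RNF126, NDUFB9 and TMF1 for NR3C1. For PGR there were 23, the nearest being TFAP2A with 2.45, 6.76 and 4.01 FPKM, TFPT and GAPDHS. FOXA1 had 10, among them CD86 and IL16, genes of immune cells. TNFSF11 had 3, namely LGALS7, RAMP1 and ADRA1A, and WNT4 had none, the nearest being NAV1 at a distance of 0.44. For VDR and TNFRSF11A there were 216 and 217 such genes, led by NPM3, RPS10 and COL3A1 and by WDR36, MTX3 and GNL3. Among the 9 genes themselves, GATA3 and NR3C1 were closest, at 0.06, and TNFSF11 and VDR farthest apart, at 3.22.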

How the data were processed

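Strand-aware libraries of pooled RNA were sequenced by the authors, who per the submitters' processing notes used TopHat2 2.0.9 for mapping and Cufflinks 2.1.1 for assembly. Levels were deposited as FPKM computed by Cuffdiff, 1 column per library, for 50041 loci on scaffolds whose assembly the table does not name; the methods name more than 1 goat assembly. Between 95.7% and 99.3% of deposited values with 7 digits ended in 5, the pattern that averaging 2 values of 6 digits gives; what was averaged is not given in the sources used here. Gene IDs were matched to the ARS1.2 gene table for symbols only (14403 of 15274 loci with a single ID), and loci of a gene were summed. No genome or sequence was used. For ratios, 0 was set to 0.001. No test was run, since each stage has 1 library.

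The 9 genes and the lists were chosen with earlier results of these data known. Named were all 9 genes, 10 genes that act with them, the 2 most abundant genes of each list and its largest ratio per comparison at a minimum of 1 FPKM in both libraries, and the 3 genes nearest in pattern to each of the 9. Some genes that this rule names are not reported here. Other names were chosen after their values were seen. Fold counting was tested on simulated data. Python 3.11.15, numpy 2.4.6, pandas 2.3.3 and matplotlib 3.10.9 were used.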

Additional observations from a re-analysis of the deposited data

How the results depend on the processing

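At a fold of at least 1.5, 5 of the 9 genes differed between early and late, as did 5 between peak and late. Over all protein-coding genes, 2310 of 13004 and 5724 of 13015 did, and 4788 of 13020 between early and peak. Of the 186 other pathway genes, 89 differed between early and peak (54 at 2-fold) and 45 between early and late (23 at 2-fold). At a fold of at least 4, 2 of the 9 genes differed between early and peak, 0 differed between early and late, and the pathway genes gave 14, 7 and 25 in the 3 comparisons, against 54, 23 and 65. A pseudocount of 1 left 0 of the 9 genes and 8 pathway genes between early and late, and 43 pathway genes between peak and late. Of all protein-coding genes it left 277 and 1983 in these comparisons. With it, 4 of 27 ratios of the 9 genes fell below 2-fold. A minimum of 1 FPKM left 14 pathway genes between early and late. These settings call fewer or more genes by construction. With the columns labelled peak and late exchanged, the comparison of early with peak gave 2 of the 9 genes and 23 pathway genes, that of early with late 4 and 54. The log2 ratio of TNFSF11 then was -0.77 for peak over early and 3.38 for late over peak, that of FOXA1 0.82 for late over early and 2.41 for late over peak, and that of WNT4 1.38 for late over peak. Of pathway genes 2-fold apart between early and peak, 35 were higher and 19 lower in peak. These were 41 and 11 after rescaling without the most abundant locus and milk protein genes, and 29 and 26 divided by 5 luminal genes. The share higher in peak was 64.81% as reported and 78.85% after that rescaling. Over all protein-coding genes 2-fold apart it was 61.6% and 76.35%. Between peak and late, 17 pathway genes were higher and 48 lower in late, and 24 and 40 divided by the luminal genes, where 4 of the 9 genes differed. The share of pathway genes higher in late was 26.15% as reported, against 32.99% of all protein-coding genes 2-fold apart. A pseudocount of 0.1, centring on the median and keeping the most abundant locus changed the direction or the 2-fold call of 0 of 27 ratios. Other causes were not tested. Without read numbers, low FPKM such as those of TNFSF11, WNT4 and FOXA1 have unknown precision. No paired analysis was possible because the pooled libraries have no replicates.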

Other observations

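Co-regulators and chaperones of steroid receptors, 22 of 23 found, differed little between the early-labelled library and the others. None was at least 2-fold higher in the peak-labelled than in the early-labelled library and FKBP5 alone was lower, 4.55% of the list against 17.7% of all genes. None differed 2-fold between the early- and late-labelled ones, where 8.71% of all genes did. Between the peak- and late-labelled libraries FKBP5 and NCOA3 were 2.05- and 2.15-fold higher in the late-labelled one, 9.09% of the list against 25.9% of all genes. Under the rescaling without the most abundant locus and milk protein genes 0 of the 22 differed 2-fold in either comparison with the peak-labelled library. HSPA8 had 274, 240 and 190 FPKM and HSP90AA1 164, 188 and 134 FPKM, the highest means. NCOA3, a co-activator of steroid receptors, had 34.6, 21.4 and 46.0 FPKM. HSP90AB1 had 156, 146 and 108 FPKM.

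Steroid metabolism genes, 14 of 22 found, gave 1 at least 2-fold higher and 2 lower in the peak-labelled than in the early-labelled library. That is 21.4% of the list against 17.7% of all genes. In the late-labelled library 4 were lower than in the early-labelled one and 0 higher, 28.6% against 8.71%. Compared with the peak-labelled library, 2 were higher and 4 lower in the late-labelled one, 42.9% against 25.9%. HSD11B1, which regenerates active cortisol, had 1.9999, 7.64 and 0.886 FPKM, and STAR, the mitochondrial cholesterol carrier, 4.31, 1.18 and 1.10 FPKM. HSD17B7 and HSD17B12, which also act in cholesterol and fatty acid synthesis, had 23.9, 14.5 and 41.2 FPKM and 15.3, 15.0 and 30.4 FPKM, and HSD17B11 had 6.87, 11.4 and 3.68 FPKM. The membrane proteins PGRMC1 and PGRMC2 had 54.2, 52.4 and 62.5 FPKM and 11.6, 12.9 and 13.6 FPKM, and GPER1, a membrane receptor that binds estrogen, had 4.60, 2.31 and 7.06 FPKM.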
